A study of Mus musculus with 17 samples.

Results

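Mos and Plat are maternal mRNAs that the growing mouse oocyte makes and stores in a translationally silent form. They were followed here through all probe sets that the platform's annotation gives to Mos or to Plat alone, which were 3 of the 12488 on the array, and stand for 2 of 8251 genes. Mos had 96521_at and 161867_f_at, and Plat had 93981_at. All 3 passed the filter on dim signals.

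The study profiled mouse preimplantation development on 17 Affymetrix MG-U74Av2 arrays, each hybridised with 1 sample. Oocytes and 8-cell embryos had 4 arrays each, and 1-cell embryos, 2-cell embryos and blastocysts had 3 each. All samples were total RNA amplified by 2 rounds of in vitro transcription, per the labels. The labels gave no genotype, strain, treatment, hours after fertilisation, number of cells per sample or meiotic stage of the oocytes. They also did not say whether arrays of a stage came from separate collections, so a p-value here speaks only to the spread among these arrays, and that spread may be technical. Precision is limited by the number of arrays.

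A stored mRNA of this kind carries a short poly(A) tail, held short by the protein CPEB1 bound to an element in its 3' untranslated region. When the oocyte resumes meiosis, CPEB1 is phosphorylated, the tail is lengthened in the cytoplasm and the mRNA is translated. Most maternal mRNAs are then degraded as the embryo's own genome becomes active, which in the mouse takes place mainly at the 2-cell stage. Mos encodes a serine/threonine kinase that activates MAP kinase kinase and so holds the mature egg at metaphase until fertilisation. Plat encodes tissue plasminogen activator, a secreted protease that cleaves plasminogen to plasmin and is made and released by the maturing oocyte and egg. The arrays measured mRNA signal, and they hold no measure of tail length, protein or translation. How the RNA was primed for amplification is not given in the sources used here, so more of an mRNA and a longer poly(A) tail on it cannot be told apart if the priming was from the tail.

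A signal is the deposited intensity of a probe set on a linear scale that the authors made comparable between arrays. It gives an mRNA relative to the whole of the amplified RNA and not per embryo. In whole samples of this kind, fewer cells holding an mRNA and less of it per cell cannot be told apart. Changes are differences of stage means of log2(signal + 11), which understates the change of dim probe sets. They were tested in 1 limma fit over all 17 arrays and called at a Benjamini-Hochberg adjusted p below 0.05. A probe set entered the fit when at least 3 arrays read above 41.1, which is the median of all values, and 8067 did. Across probe sets, 2 arrays of 1 stage correlated at between 0.935 and 0.979, and no array correlated above 0.891 with one of another stage.

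The labelled stages bore most of their markers, though not every marker peaked in its stage. The summed signal of 6 measured oocyte markers was 23696 to 25830 in oocytes and 17228 to 21180 in 1-cell embryos. It was 3995.5 to 5197.9 in 2-cell embryos, 333.7 to 448.3 in 8-cell embryos and 180.3 to 240.3 in blastocysts. The 6 did not move together in the 1-cell embryo, where 2 were called higher than in the oocyte and 3 lower. Zp1, Zp2 and Zp3 had lower means there, and Gdf9, Bmp15 and Dazl had higher ones. Zp3 averaged 1345.4 in 1-cell embryos and 7194.2 in oocytes, and Dazl averaged 4297.1 and 1855.6. Krt8 and Krt18, keratins of the trophectoderm, averaged 3655.2 and 3278.8 in blastocysts, while the trophectoderm factor Cdx2 was at most 15.8 on any array. Nanog averaged 1725.8 in blastocysts and 1070.4 in 8-cell embryos, and Pou5f1 averaged 610.3 and 725. Of 4 measured 2-cell markers, Usp17la, Tcstv1 and Tcstv3 had their highest means in 2-cell embryos (113.4, 2060.4 and 1372.2). Eif1a averaged 443.2 there and 1539.6 in 8-cell embryos. Cumulus and granulosa cells surround the oocyte and also make Plat. Of 11 measured markers of those cells, 9 were below the filter on every oocyte array and 1, Fshr, was above it on all 4. Their summed signal was 274.4 to 325.4 in oocytes, 229.9 to 371.2 in 1-cell embryos, 231.1 to 268.7 in 2-cell embryos, 202 to 403.5 in 8-cell embryos and 123.4 to 253.6 in blastocysts. The oviduct transcripts Ovgp1 and Ltf stood at 6212.4 and 827.7 on replicate 2 of the 8-cell embryos, where Ovgp1 was at most 114.1 on the other 3 arrays. Both were also above the filter on all 2-cell arrays, where Ovgp1 read 688.1 to 1271.8. The summed signal of 4 measured blood markers was 49.9 to 103.3 in oocytes, 64.8 to 156.9 in 1-cell embryos, 208.5 to 293 in 2-cell embryos, 161.5 to 289.1 in 8-cell embryos and 89.5 to 139.3 in blastocysts. The log2 ratio of the 3' to the 5' probe set of beta-actin, a measure of how far the copied RNA reaches, was 1.74 to 2.18 in oocytes, 1.67 to 2.50 in 1-cell embryos, 1.62 to 2.26 in 2-cell embryos, 1.79 to 2.07 in 8-cell embryos and 0.95 to 1.24 in blastocysts. The same ratio of Gapdh was 1.93 to 2.24 in oocytes, 2.23 to 2.26 in 1-cell embryos, 2.43 to 3.03 in 2-cell embryos, 0.22 to 1.55 in 8-cell embryos and 2.38 to 2.88 in blastocysts, so that the 2 genes did not move together. The part of these marker signals and ratios in the results on Mos and Plat was not tested.

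Mos was high in the oocyte, lower in the 1-cell embryo and near the filter from the 8-cell stage on. The signal of 96521_at was 3621.5, 4323.3, 3858.2 and 3730.9 in oocytes. It was 2203.5, 2011.2 and 2083.3 in 1-cell embryos, and 74.2, 97.9 and 245.8 in 2-cell embryos. It was 49.9, 62.6, 22.4 and 59.7 in 8-cell embryos, and 39.9, 31.6 and 29.7 in blastocysts. No array of the first 4 stages overlapped with an array of the next of them, and the 8-cell and blastocyst arrays did overlap. Against the oocyte mean, the 1-cell mean was 54.1%, the 2-cell mean 3.59%, the 8-cell mean 1.25% and the blastocyst mean 0.869%. Replicate 3 of the 2-cell embryos held the highest 2-cell signal of Mos and also that of Plat.

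**Figure D1:**
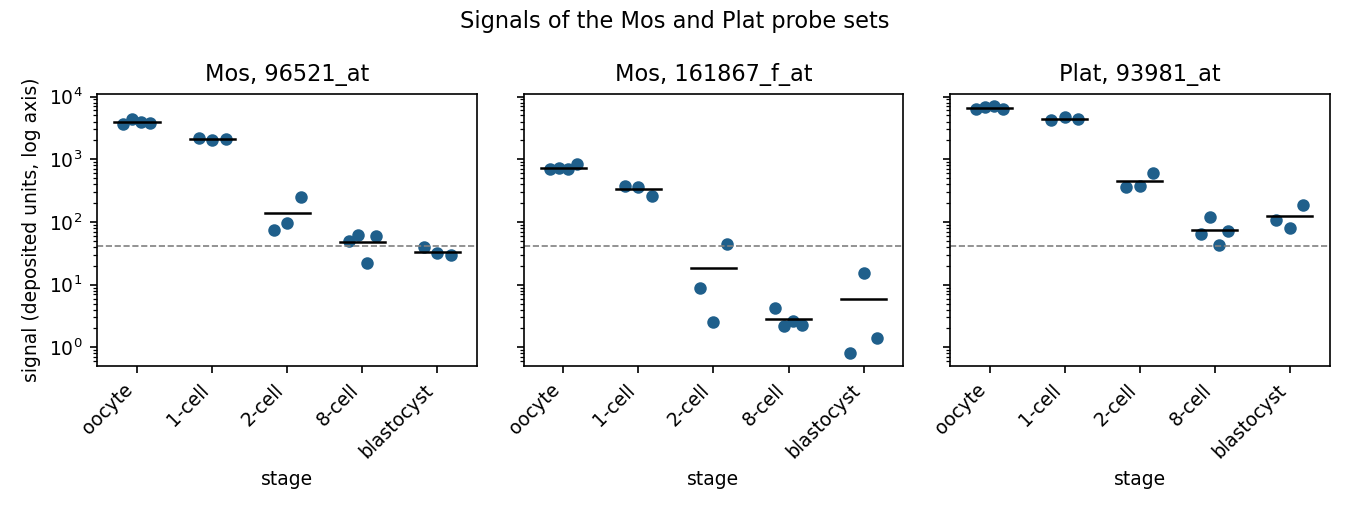
Signal of each Mos and Plat probe set on every array (points, in deposited units on a log axis) by stage, with the stage mean as a bar and the filter of 41.1 as a dashed line. The oocyte and 1-cell arrays lie far above the line for all 3 probe sets, and the blastocyst arrays of both Mos probe sets lie below it.

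Mos averaged 2099.3 ± 97.2 in 1-cell embryos and 3883.5 ± 308.8 in oocytes (SD, n = 3 and 4). This change of -0.88 ± 0.28 (log2, SE) was called by limma at an adjusted p of 0.0181, and 19.8% of tested probe sets were called lower in this comparison. The call was lost without replicate 2 of the 1-cell embryos, at -0.85 and an adjusted p of 0.0586. Quantile normalization gave a change of -1.42 (adjusted p 0.000605).

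The largest step of Mos came between the 1-cell and the 2-cell embryo, where its signal was 15.8-fold lower on the scale with the offset. Mos averaged 139.3 ± 93.0 in 2-cell embryos and 2099.3 ± 97.2 in 1-cell embryos (SD, n = 3 each). The change was -3.98 ± 0.30 with an adjusted p of 4.52e-10 (limma), in a comparison where 21.2% of tested probe sets were called lower. The log2 SD of Mos was 0.84 in 2-cell embryos and 0.07 in 1-cell embryos. The fit takes 1 spread over all stages, so this SE does not show the wider spread of the 2-cell arrays. The same holds for the comparisons of the 2-cell embryo with the oocyte and the 8-cell embryo. By size of the fall, Mos ranked 6 of 8067 probe sets, and between 4 and 8 under the other scalings and offsets run. Set against the oocyte, the 2-cell embryo differed by -4.86 ± 0.28 (limma, adjusted p 8.86e-12), which ranked 3, with 23.2% of probe sets called lower.

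Mos fell again by 1.23 ± 0.28 between the 8-cell embryo, with a mean of 48.7, and the 2-cell embryo, with a mean of 139.3 (limma, adjusted p 0.000935). In this comparison 28.3% of probe sets were called lower. Without replicate 3 of the 2-cell embryos the fall was 0.76, with an adjusted p of 0.012. The change of -0.36 ± 0.28 in the blastocyst against the 8-cell embryo was not called (adjusted p 0.333). It was -0.23 without replicate 2 of the 8-cell embryos and -0.61 without replicate 3, and neither was called. On the authors' scaling, Mos lost 45.9% and then 50.5% of its oocyte signal in the 2 steps from the oocyte to the 2-cell embryo. This left 3.59% for the later stages. The split depends on the scaling, since under another scaling the first step of Mos was as deep as -1.99.

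The other Mos probe set, 161867_f_at, gave the same order of the first 3 stages at a lower brightness. Its suffix marks probes shared with other transcripts, so it is the less certain of the pair. Its signal was 698.3, 712.4, 697.9 and 830.6 in oocytes, 367.9, 366 and 260.1 in 1-cell embryos and 8.8, 2.5 and 44.5 in 2-cell embryos. All 8-cell and blastocyst arrays were at or under 15.4, below the filter. It changed by -1.14 ± 0.35 between the 1-cell embryo and the oocyte (limma, adjusted p 0.0134) and by -3.78 ± 0.37 between the 2-cell and the 1-cell embryo (adjusted p 2.31e-08). The first of these calls was lost without replicate 3 of the 1-cell embryos (-0.98, adjusted p 0.0659) and with an offset of 1 (-1.16, adjusted p 0.206). Between the 8-cell and the 2-cell embryo it changed by -0.83 (limma, adjusted p 0.0497), with overlapping arrays. That call was lost in 14 of 18 alternatives. Between the blastocyst and the 2-cell embryo its change of -0.65 was not called (adjusted p 0.141). As a description, the 2 probe sets correlated at r = 0.983 over the 17 arrays.

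Plat was also highest in the oocyte, and it was called lower at each of the steps from the 1-cell to the 8-cell embryo. Its signal was 6435.1, 6856.2, 7103 and 6327.2 in oocytes, and 4275.3, 4732.6 and 4392.9 in 1-cell embryos. It was 363.3, 374.3 and 602.7 in 2-cell embryos and 64.6, 121.1, 43.1 and 70.8 in 8-cell embryos. In blastocysts it was 109.3, 80.6 and 187.6. The arrays of neighbouring stages did not overlap up to the 8-cell embryo, while those of the blastocyst and the 8-cell embryo did. Every Plat value was above the filter, and the 8-cell mean was 1.12% and the blastocyst mean 1.88% of the oocyte mean.

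Plat averaged 4466.9 ± 237.5 in 1-cell embryos and 6680.4 ± 362.6 in oocytes (SD, n = 3 and 4). The change of -0.58 ± 0.25 was not called by limma (adjusted p 0.082), although no 1-cell array reached the lowest oocyte array. The fit takes 1 spread over all stages, and the log2 SD of Plat was 0.08 in oocytes and in 1-cell embryos against 0.40 to 0.57 in the later 3 stages. Fitted on the arrays of these 2 stages alone, the same change was called at an adjusted p of 0.00291. Quantile normalization gave -1.26, with an adjusted p of 0.000806.

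Between the 2-cell and the 1-cell embryo Plat fell by 3.33 ± 0.27 (limma, adjusted p 1.38e-09), to a mean of 446.8 ± 135.2 in 2-cell embryos against 4466.9 ± 237.5 in 1-cell embryos (SD, n = 3 each). This was 10-fold lower with the offset and ranked 17 of 8067. The 8-cell embryo had 74.9 ± 33.0 (SD, n = 4), against 446.8 in the 2-cell embryo, a fall of 2.45 ± 0.25 (limma, adjusted p 4.3e-08), and the change was -2.68 without replicate 2 of the 8-cell embryos. Of the oocyte signal on the authors' scaling, 33.1% was lost by the 1-cell embryo, 60.2% by the next step to the 2-cell embryo and 5.57% by the 8-cell embryo. This split also depends on the scaling, since under another scaling the first step of Plat was as deep as -1.69.

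The blastocyst showed more Plat signal than the 8-cell embryo, 125.8 ± 55.4 and 74.9 ± 33.0 (SD, n = 3 and 4), a change of 0.67 ± 0.25 that was called only narrowly (limma, adjusted p 0.0386). In this comparison 21.8% of probe sets were called higher, and the arrays of both stages overlapped. The call was lost without any of replicates 1, 3 and 4 of the 8-cell embryos, and without replicate 1 or 3 of the blastocysts. Without blastocyst replicate 3 the change was 0.36 (adjusted p 0.298), and without 8-cell replicate 2 it was 0.90 (adjusted p 0.00451). It was 1.69 with arrays scaled on the hybridisation controls, which are control transcripts added at hybridisation and not to the starting RNA.

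From end to end, blastocyst minus oocyte, Mos changed by -6.45 ± 0.28 (limma, adjusted p 2.6e-14) and Plat by -5.69 ± 0.25 (adjusted p 3.34e-14), 87.3-fold and 51.5-fold lower with the offset. This comparison called 32.1% of tested probe sets lower. In the blastocyst against the 2-cell embryo, Mos fell by 1.58 ± 0.30 (adjusted p 0.000121) and Plat by 1.78 ± 0.27 (adjusted p 8.14e-06), where 32.1% were also called lower. The other Mos probe set, 161867_f_at, was not called there (-0.65). In order of mean signal, Mos stood highest in the oocyte, then in the 1-cell, the 2-cell and the 8-cell embryo and the blastocyst, the last pair not differing beyond their spread and changing places on the hybridisation controls. Plat had the same order but with the blastocyst above the 8-cell embryo.

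**Figure D2:**
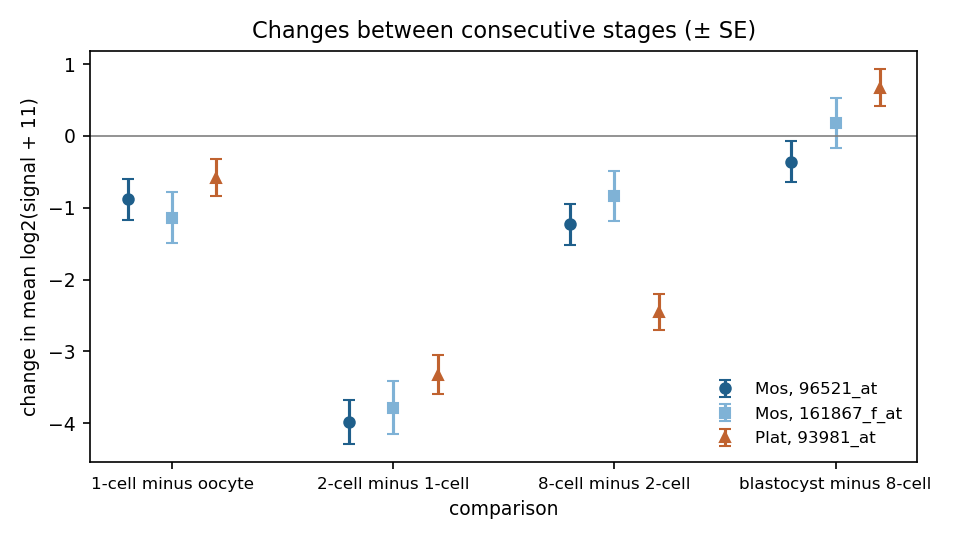
Change in mean log2(signal + 11) between consecutive stages (later minus earlier) for the 3 probe sets, with bars of the SE. The step from the 1-cell to the 2-cell embryo is the deepest for all 3, and Plat falls by 2.45 in the next step, where Mos falls by 1.23.

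The relation of Mos to Plat was taken within each array, where the scaling of the array cancels apart from the offset. Log2 Mos minus log2 Plat averaged -0.78 ± 0.09 in oocytes, -1.09 ± 0.14 in 1-cell embryos, -1.74 ± 0.45 in 2-cell embryos, -0.52 ± 0.30 in 8-cell embryos and -1.54 ± 0.65 in blastocysts (SD, n = 4, 3, 3, 4 and 3). Between the 1-cell embryo and the oocyte the difference was -0.30, with no overlap of arrays (exact two-sided permutation p = 0.0571). This is the smallest p that 3 against 4 arrays allow. Between the 8-cell and the 2-cell embryo it was 1.22, also without overlap (exact p = 0.0571), and between the 2-cell and the 1-cell embryo -0.65 (exact p = 0.1, the smallest for 3 against 3). The blastocyst differed from the 8-cell embryo by -1.03 (exact p = 0.0571), by -0.66 without replicate 3 of the blastocysts. The blastocyst differed from the oocyte by -0.76, and by -0.39 without that array. In all, 7 comparisons were made in this way. With so few arrays the exact permutation test could not go below the threshold in any of them, so it does not say whether the 2 genes fell unequally, and the values and their overlap stand as a description.

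**Figure D3:**
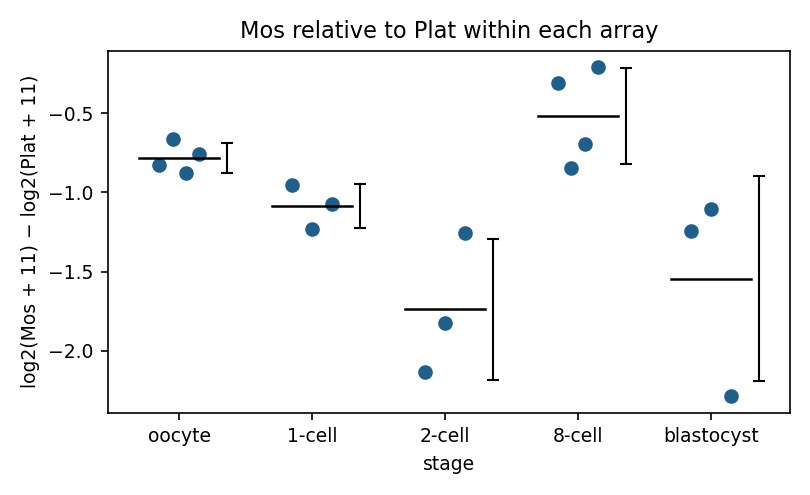
Log2(Mos + 11) minus log2(Plat + 11) on each array by stage (points), with the stage mean as a bar and the SD as an error bar to its right. The 2-cell arrays lie below the 1-cell arrays, and the 8-cell arrays lie above the 2-cell arrays.

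Few of 6043 other genes had a course closer to that of Mos than Plat did, which ranked 5 by Pearson r over the 17 arrays (r = 0.980). Mos ranked 3 for Plat. Above Plat stood Gspt2, a translation termination factor, with r = 0.991, Gja4 (connexin 37, the gap junction protein between oocyte and cumulus cells) with 0.985, Pdcd7 with 0.981 and Fip1l1, a subunit of the cleavage and polyadenylation factor, with 0.981. Aass, an enzyme of lysine breakdown, followed with 0.980. For Plat the closest were Gja4 with 0.985 and Tbc1d14 with 0.981, and after Mos came Pdx1, a homeodomain factor, Fgf8, a growth factor, and Dnmt1, the maintenance DNA methyltransferase. Pdx1 was dim, at most 51.8 in any oocyte array.

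In the course of the stages, Gspt2 averaged 1038.2 in oocytes, 971.6 in 1-cell embryos, 132.4 in 2-cell embryos, 83.2 in 8-cell embryos and 61.6 in blastocysts. Gja4 averaged 1494.2, 657.6, 59.97, 6.68 and 5.70 in the same order. These r values are descriptions over arrays that fall into 5 stages, and all the genes share the same arrays. The order is not stable. By Spearman's rho none of the 6 genes closest to Mos, Plat among them, kept its place among the 6. Of the 6 closest to Plat, 1 did. By Pearson r over the stage means, 2 of the 6 closest to Mos and none of those closest to Plat did. With r at or above 0.9 there were 193 genes for Mos and 295 for Plat.

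Other mRNAs known to be stored in the oocyte and taken up for translation in meiosis had more signal in the 1-cell embryo than in the oocyte on the authors' scaling. Of 13 listed, 7 were on the array with a probe set of their own, and all 7 were tested. All 7 were called higher in the 1-cell embryo than in the oocyte, with a median change of 1.26. Over all tested probe sets the median was 0.04 and 17.3% were called higher. The list was chosen with earlier results of these data known, so this count is a description and not a test. Hprt, an enzyme of purine salvage, averaged 1827.3 ± 230 in 1-cell embryos and 716.8 ± 191.6 in oocytes (SD, n = 3 and 4), a change of 1.36 ± 0.19 (limma, adjusted p 4.85e-06). Cnot7, a deadenylase that shortens poly(A) tails, changed by 1.40 ± 0.20 and Btg4, an adaptor that recruits that deadenylase, by 0.81 ± 0.21 (adjusted p 0.00415).

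The other 4 were Spin1, with 1.26, Orc6, a subunit of the origin recognition complex, with 1.28, Dazl, an RNA-binding translation factor, with 1.23, and Dcp1a, a decapping cofactor, with 1.13. Quantile normalization left 5 of the 7 called, without Btg4 (0.17) and Dazl (0.99). Not all probe sets of these genes moved. Of 3 further Spin1 probe sets 2 were called higher and 1 was not (0.10), and the further probe sets of Dazl (0.40) and Cnot7 (-0.28) were not called. With arrays scaled on the hybridisation controls, the median of the 7 was 0.14 and none was called. On that scale Mos changed by -1.99 and Plat by -1.69, and the median of all probe sets shifted by -0.91. The 18S ribosomal RNA control probe set read 6261.2 to 7965 on 1-cell arrays and 263 to 346.2 on oocyte arrays. The part of these shifts in the result was not tested.

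Set against the mean log2 of these 7 genes on the same array, Mos read -1.02, -0.99 and -0.64 in 1-cell embryos and 1.16, 1.10, 1.29 and 1.29 in oocytes. Plat read -0.06, 0.24 and 0.43 in 1-cell embryos, and 1.98, 1.77, 2.17 and 2.05 in oocytes. Both genes were thus lower relative to the others on all 3 arrays of the 1-cell embryo. This follows from the changes already given and is no separate result. From the 1-cell to the 2-cell embryo, 6 of the 7 were called lower and Hprt higher (0.53 ± 0.20, limma, adjusted p 0.0328), with a median of -1.29, where 21.2% of tested probe sets were called lower and 26.0% higher. The call of Hprt was lost with median centring (0.25) and on the hybridisation controls (0.75), and that of Btg4 with quantile normalization (-0.19) and on the hybridisation controls (-0.53). None of the 3 further Spin1 probe sets was called in this step (-0.05 to 0.07, against -1.29 for the one used), nor was the further one of Cnot7 (0.49). Dazl (-2.91) and Dcp1a (-2.62) fell furthest, and neither fell as far as Mos (-3.98) or Plat (-3.33). The median of the 7 between the blastocyst and the oocyte was -3.87, with Hprt higher by 2.47 and the other 6 lower.

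**Figure D4:**
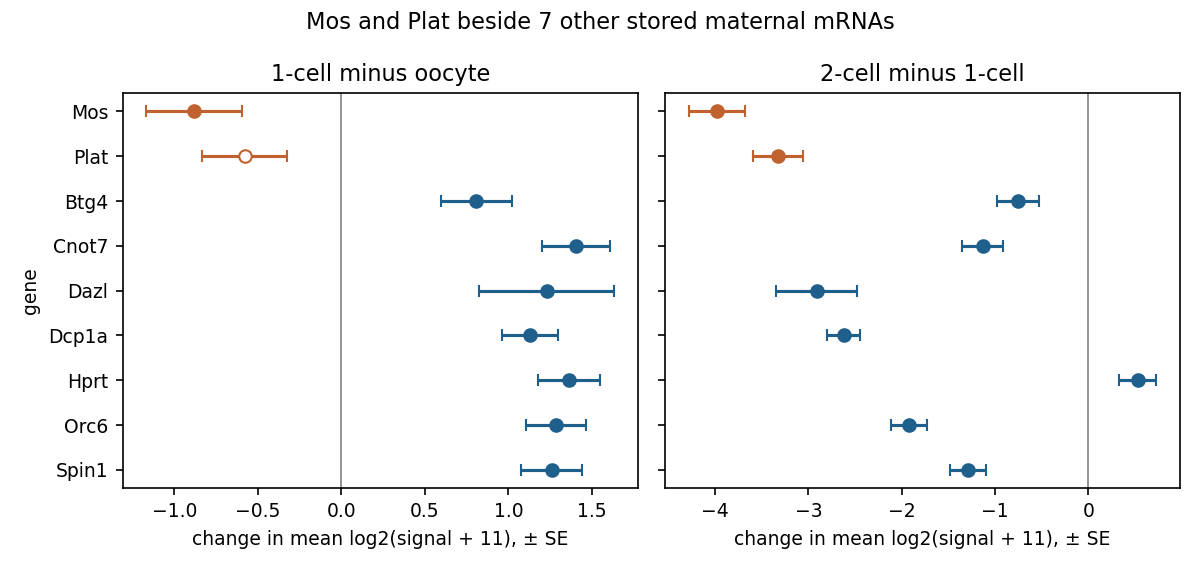
Change in mean log2(signal + 11) of Mos, Plat and 7 other stored mRNAs for 1-cell minus oocyte and 2-cell minus 1-cell, with bars of the SE and open symbols for changes not called. On the authors' scaling, which is the one drawn, all 7 others are above 0 in the 1-cell embryo, where Mos and Plat are below it. With arrays scaled on the hybridisation controls, which is not drawn, Btg4 is below 0 too, at -0.31.

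The machinery of cytoplasmic polyadenylation and mRNA masking was measured by 14 tested genes of 25 listed. In the 1-cell embryo 2 were called higher than in the oocyte, 2 lower and 10 not at all, with a median of 0.14, beside 17.3% higher and 19.8% lower over all tested probe sets. On the hybridisation controls none of the 14 was called higher and 9 lower, where 4591 of 8067 tested probe sets were called, nearly all of them lower. Higher were Cpsf2 (1.33 ± 0.17, limma, adjusted p 2.2e-06), a subunit of the cleavage and polyadenylation specificity factor, and the poly(A) polymerase Papola (0.67 ± 0.18). Lower were Cpsf4 (-2.14 ± 0.20) and Tacc3, known as maskin in the frog, at 339.6 ± 101.4 in 1-cell embryos and 2249.8 ± 236.3 in oocytes (SD, n = 3 and 4). Neither the further Cpsf2 probe set (0.38, adjusted p 0.0663) nor the further one of Papola (-0.20) was called.

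Cpeb1 itself, whose protein binds the stored mRNAs, fell after the 1-cell stage and was below the filter on every 8-cell and blastocyst array. It averaged 168.0 in oocytes, 138 in 1-cell embryos, 49.6 in 2-cell embryos, 11.8 in 8-cell embryos and 12.0 in blastocysts. It changed by -1.29 ± 0.28 between the 2-cell and the 1-cell embryo (limma, adjusted p 0.000549). In the same comparison 4 of the 14 genes were called higher and 5 lower, with a median of -0.18. Papola was not called there (-0.30), while its further probe set was called higher (2.35, limma, adjusted p 8.01e-09). Cpsf2 was called lower (-0.90), while its further probe set was not called (0.08). The further probe sets of Ddx6, which was called higher (0.83), gave 0.75, called, and -0.24, not called. Over all tested probe sets the median was 0.06, with 26.0% called higher and 21.2% lower. On the hybridisation controls 3 of the 14 were called higher and 1 lower. There 2814 of 8067 tested probe sets were called, more of them higher than lower. Pabpc1, the poly(A)-binding protein of somatic cells, rose by 3.00 ± 0.23, to 1532.4 in 2-cell embryos against 179.6 in 1-cell embryos. In the blastocyst, 5 were called higher than in the oocyte and 7 lower, beside 32.2% and 32.1% of all tested probe sets. Cpsf2 was among the lower (-0.81), while its further probe set was called higher (1.00, limma, adjusted p 9.85e-06). The further probe sets of Papola and Ddx6 were called higher, as were the ones used.

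Members of the Mos pathway moved in both directions. Of 16 listed genes, 9 were tested, and in the 1-cell embryo 4 were called higher than in the oocyte and 2 lower, with a median of 0.26, beside 17.3% higher and 19.8% lower over all tested probe sets. Map2k1, the MAP kinase kinase that Mos activates, averaged 2085.5 ± 210.8 in 1-cell embryos and 928.3 ± 99.9 in oocytes (SD, n = 3 and 4), a change of 1.16 ± 0.25 (limma, adjusted p 0.000822). In the 2-cell embryo Map2k1 fell to 565.1 ± 328.8, against 2085.5 in the 1-cell embryo (-2.01 ± 0.27, adjusted p 1.79e-06). Higher in the 1-cell embryo were also Cdc20, the activator of the anaphase-promoting complex (1.17), the kinase Plk1 (0.76) and the MAP kinase phosphatase Dusp1 (0.72). The 2 further Plk1 probe sets were not called.

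Lower in the 1-cell embryo were Cdk1, the kinase of M phase (-1.60), and the checkpoint kinase Bub1 (-1.76), whose 2 further probe sets were not called. Cdk1 rose by 2.86 ± 0.21 between the 2-cell and the 1-cell embryo (limma, adjusted p 1.78e-10). In that comparison 2 genes were called higher and 4 lower, beside 26.0% and 21.2% of all tested probe sets, with Dusp1 at -2.26 ± 0.20. The other gene called higher was Bub1 (0.54, limma, adjusted p 0.046). Its further probe sets went in both directions there, with -1.29 (called lower, adjusted p 0.00243) and 0.76 (not called). Those of Plk1 were called lower, as was the one used. In the blastocyst, 3 genes were called higher than in the oocyte and 4 lower, beside 32.2% and 32.1%. With arrays scaled on the hybridisation controls none was called higher in the 1-cell embryo and 3 lower. On that scale 4591 of 8067 tested probe sets were called, nearly all of them lower.

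Of the plasminogen system, 9 genes of 13 listed were tested, and none was called higher in the 1-cell embryo than in the oocyte, with 3 lower and a median of -0.14 (5 lower on the hybridisation controls). Over all tested probe sets 17.3% were called higher and 19.8% lower, and on the hybridisation controls 4591 of 8067 were called, nearly all of them lower. Lower were Plg, the substrate of Plat, with -1.17 ± 0.34, Serpini1, its inhibitor neuroserpin, with -1.19 ± 0.29 (limma, adjusted p 0.00239), and Anxa2, a receptor for both at the cell surface, with -1.70 ± 0.32. Serpini1, like Plat, had its highest mean in the oocyte, at 546.3 in oocytes, 228.0 in 1-cell embryos, 54.3 in 2-cell embryos, 24.3 in 8-cell embryos and 28.4 in blastocysts. Plau, the urokinase type activator, was dim at 30 to 54 on average in all stages and was not called in these comparisons.

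In the 2-cell embryo 3 of the 9 genes were called lower than in the 1-cell embryo, with a median of -0.57, beside 21.2% of all tested probe sets. Among them was Lrp1, a clearance receptor (-0.78). With quantile normalization or median centring 6 were called lower. Between the blastocyst and the oocyte, 3 were called higher and 3 lower. Higher were Anxa2, at 1833.6 ± 373.1 in blastocysts and 499.1 ± 101.3 in oocytes (SD, n = 3 and 4), its partner S100a10 (4.52 ± 0.25) and the urokinase receptor Plaur (2.00 ± 0.35). A further S100a10 probe set was not called (0.22). In this comparison 32.2% of all tested probe sets were called higher and 32.1% lower. Levels are not set against each other between genes, since each probe set has its own brightness.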

How the data were processed

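The deposited table holds 1 signal intensity per probe set and array, on a linear scale. Which software and scaling target the authors used for these intensity values is not given in the sources used here; their scaling was kept. Per the labels, total RNA went through 2 rounds of in vitro transcription. Groups are the 5 stages in the sample titles. Probe sets were named through the platform's annotation (10833 with 1 symbol, 396 with several, 1193 with none), with 10817 brought up to date by Entrez ID. Where a gene had several probe sets, the one with the highest mean stood for it.

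An offset of 11 (the 25th percentile of the whole table) was added before log2. Control probe sets (66) and dim probe sets were left out, and 8067 were tested in R 4.3.3 with limma 3.58.1 (lmFit, eBayes with an intensity trend, two-sided). The fit was tested on simulated data. Named genes are Mos and Plat, the 6 genes with the highest Pearson r to each, at most 8 tested members of each gene list, and the listed markers. The members and the lists were chosen with earlier results of these data known. Alternatives were quantile normalization, median centring, scaling on 9 hybridisation control probe sets, offsets of 1 and 50, no filter, a stricter filter (above 152.5), no trend, weights for arrays, a replicate block, a fit on only the 2 stages compared, and each array left out in turn. The comparison of blastocyst and 2-cell embryo, and the settings run for the lists, were added after seeing the data. The replicate block took its groups from the numbers in the sample titles. The labels name no batch.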

Additional observations from a re-analysis of the deposited data

Results flagged for a closer look

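In groups of 4 arrays, 4 values of 104 groups lay far enough from the other 3 to be picked out, where chance picks about 1 in 20 groups. Mos 161867_f_at read 830.6 in replicate 4 of the oocytes, against 697.9 to 712.4 in the others. Cpeb1 read 26.5 in replicate 4 of the 8-cell embryos, against 5.4 to 8.1. Aurka, a kinase of the meiotic and mitotic spindle, read 2201 in the same array, against 1585.2 to 1690.1. Bub1 read 613.8 in replicate 1 of the oocytes, against 750.7 to 756.3.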

How the results depend on the processing

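Of 588 alternative values, 542 were labelled the same as the main value. For a change, this means the same direction and the same side of the threshold. For a count it means only a total near the main one, so its split into higher and lower could still move. For the Mos minus Plat differences the exact permutation test could not go below the threshold, so only their direction could change. The change of Plat between the 1-cell embryo and the oocyte was not called, but was with quantile normalization (-1.26, adjusted p 0.000806), scaling on the hybridisation controls (-1.69, 3.23e-05), an offset of 50 (-0.58, 0.03), array weights (-0.55, 0.0272) and only the stages compared (-0.58, 0.00291). Its adjusted p ranged from 3.23e-05 to 0.182. The rise of Plat in the blastocyst against the 8-cell embryo was not called with quantile normalization (0.57, adjusted p 0.0909), an offset of 50 (0.48), no filter (0.67), no trend (0.67), array weights (0.55), only the stages compared (0.67) or the replicate block (0.66, 0.0631). It ranged from 0.36 to 0.92 with arrays left out. Mos in the blastocyst against the 8-cell embryo turned to 0.54 (adjusted p 0.145) on the hybridisation controls. Mos in the 1-cell embryo against the oocyte ranged from -0.92 to -0.83 with arrays left out. The Mos minus Plat difference between the blastocyst and the 2-cell embryo ranged from -0.0255 to 0.57, and Mos 161867_f_at in the blastocyst against the 8-cell embryo from -0.19 to 0.39. The causes were not tested.

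The replicate numbers gave no sign of pairing. Deviations of same-numbered arrays of different stages correlated at -0.08 to 0.13 (median 0.02 over 31 pairs). Those of other-numbered arrays correlated at -0.27 to 0.36 (median -0.01 over 84 pairs). Whether same-numbered arrays were handled together is not given in the labels. The replicate block changed no other call of a main probe set. Probe sets called between the 1-cell embryo and the oocyte came to 4591 on the hybridisation controls (31 higher, 4560 lower), against 2994 (1397 higher, 1597 lower). The same scaling also moved the split for 2-cell minus 1-cell (1916 higher and 898 lower, against 2096 and 1714), 8-cell minus 2-cell (852 and 3233, against 2083 and 2281), blastocyst minus 8-cell (4596 and 200, against 1760 and 1672), 2-cell minus oocyte (785 and 3700, against 2085 and 1873), blastocyst minus oocyte (1873 and 2985, against 2597 and 2587) and blastocyst minus 2-cell (2726 and 1320, against 2233 and 2586). Median centring gave 1614 and 2434 for 2-cell minus 1-cell and 1574 and 2360 for 2-cell minus oocyte. Signals near the filter limit what can be said of Mos after the 2-cell stage.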
